A study of Homo sapiens with 3 samples.

Results

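The genes that build and run the DNA replication fork were examined in HT-29, an established cell line from a human colon adenocarcinoma, after exposure to interferon-γ (IFN-γ), a cytokine released by T and NK cells. The set held 46 genes, chosen by name for their role in replication and not for their signal, out of 11963 genes that the array named through probe sets of a single symbol. All 46 were measured, by 67 probe sets, and each gene was read from its brightest one. The 3 arrays were 1 group of cultures, described by the series as biological replicates, all plated at 50000 cells per cm2 in McCoy's medium with 10% serum, grown for 24 h and given 200 U/ml IFN-γ for 24 h. Untreated cultures were not analysed here, so every value is a level in treated cells and none measures a response to IFN-γ. The cultures were whole populations of 1 transformed line, so more cells in S phase and more RNA per cell cannot be told apart.

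Replication is prepared before S phase, when the origin recognition complex, CDC6 and CDT1 load the MCM helicase onto DNA as an inactive ring. At the onset of S phase the kinase of CDC7 and DBF4, together with cyclin-dependent kinase, recruits CDC45 and the GINS complex to the ring and turns it into a moving helicase. Polymerases, the sliding clamp PCNA and a supply of deoxynucleotides then allow both strands to be copied, and transcription factors of the E2F family are known to raise the mRNA of many of these proteins as cells leave G1.

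The row names of the table had to be put in order before any gene could be read. Under the names as deposited, probe sets of 1 gene had poorly related signals, with r = 0.19 (rho = 0.19) across 4310 genes with several probe sets. An order that moved the names gave r = 0.60 (rho = 0.60) across the same genes, which are not independent replicates. In 17 stretches of the table the correlation peaked at this order in all 17 when shifts of up to 6 rows either way were tried. There each probe set was set against the mean of the gene's other probe sets, which were held in the inferred order. Margins differed, and the stretch with the lowest r had 0.31 against 0.27 at another shift. Over the 16 replication genes with several probe sets the 2 orders could not be told apart by r, which was 0.35 (rho = 0.52) in the inferred order and 0.36 (rho = 0.28) as deposited. Moving all names by a uniform 487 rows gave r = 0.50 across 4080 genes, and over 15 of the replication genes it gave r = 0.63, higher than the inferred order did. For most of these genes it is not a separate order. Of the 67 probe sets of the replication genes, the inferred order also moves 50 by 487 rows, and it moves 15 by 488 rows. The replication genes alone thus did not single out the inferred order, which rests on the whole table. No label states it, it was known from earlier work on these same values, and every value below depends on it. In the inferred order 45 of the 46 genes passed the test described next, against 2 of 46 with the names as deposited.

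**Figure D1:**
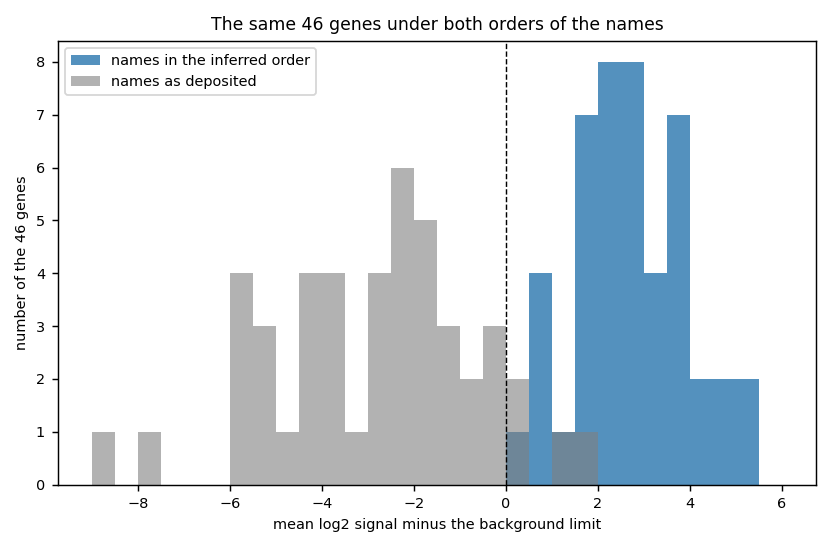
Mean log2 signal minus the background limit (x axis) for the 46 replication genes, as the number of genes per bin of 0.5 log2 units (y axis), with the names in the inferred order (blue) and as deposited (grey). The dashed line is the limit. The median lay at 2.60 in the inferred order and at -2.39 as deposited.

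Nearly the whole machinery was detected in the treated cells. A gene was called detected when its log2 signal lay over the background limit of the arrays by limma's one-sided test, at a Benjamini-Hochberg adjusted p under 0.05, adjusted across the 11963 genes. The limit was taken from 75 genes known from heart, brain, eye and other foreign tissues, as the 95th percentile of their signals on each array, a signal of 180.1, 196 and 172 on replicates 1, 2 and 3. Of the 46 genes 45 were detected, where 43.6% of all genes were. PRIM2, the large subunit of primase, was the exception. The median over the 46 genes was 2.60 log2 units over the limit, and that over all 11963 genes was 0.08. Signals of different genes come from different probe sets and were not ranked against each other.

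**Figure D2:**
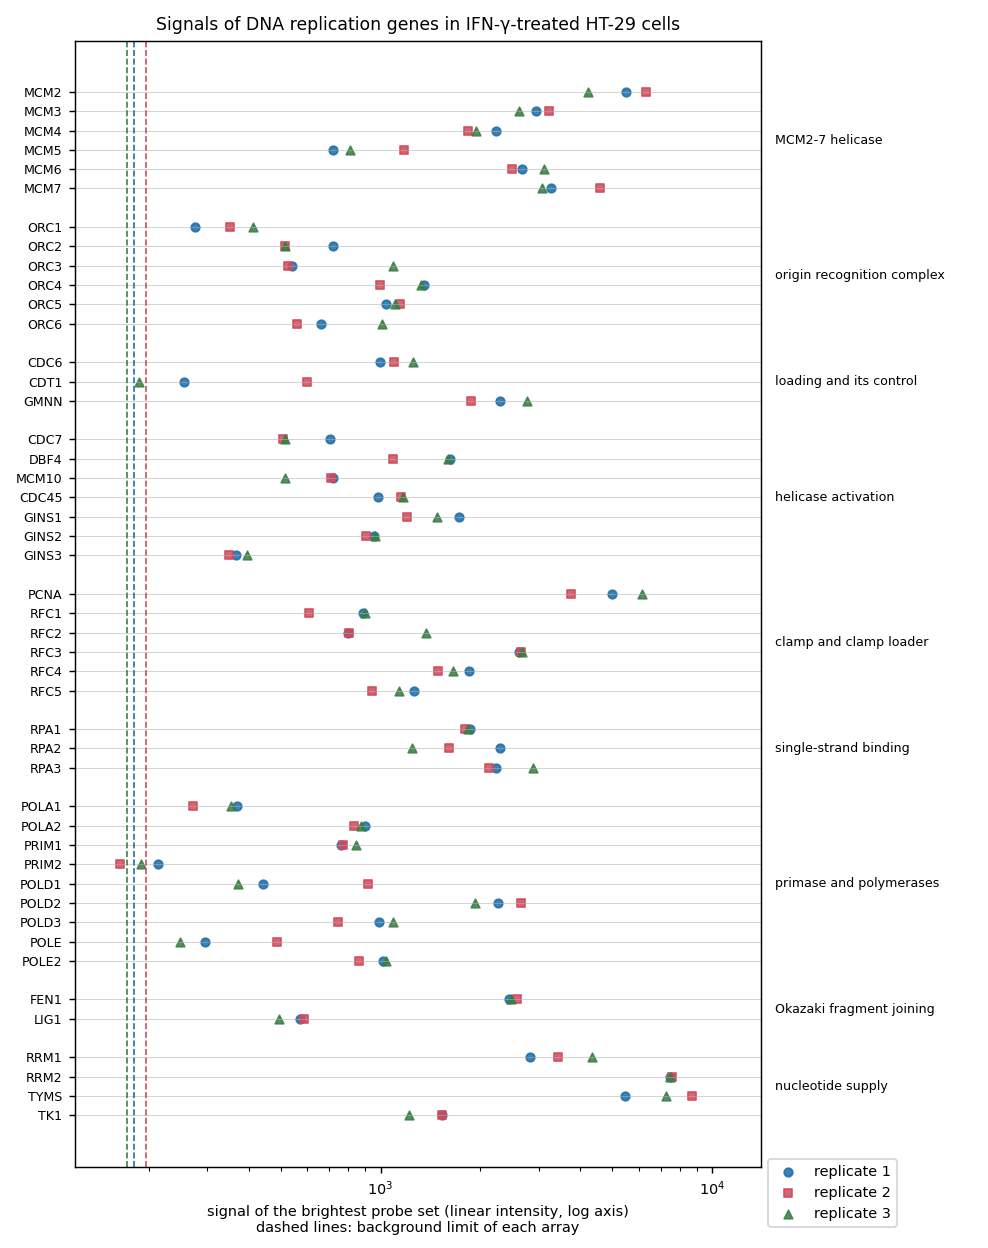
Signal of each of the 46 genes (rows, grouped by role) on a log axis, with 1 symbol for each of the 3 replicate cultures. Dashed lines mark the background limit of each array. In all rows but that of PRIM2, each symbol lies over the limit of its own array.

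The promoters of many of these genes share short sequences of the kind that E2F factors bind. Windows of 300 bases, 250 before and 50 after the annotated start, were taken from RefSeq (build GRCh38.p14) and were available for 41 of the 46 genes. They were searched on both strands for TTTCCCGC, TTTGGCGC, TTTCGCGC and TTTGCCGC. At least 1 of these was found for 20 of 41 genes (48.8%), for 337 of 4440 detected genes (7.59%) and for 1090 of 27305 genes with any window (3.99%). TTTCCCGC was found for 11 of the genes, TTTGGCGC for 7, TTTCGCGC for 5 and TTTGCCGC for 0. Matches on opposite strands can overlap. The pentamer CCAAT, bound by the factor NF-Y, was found for 24 of 41 genes (58.5%), against 45.5% of detected genes and 39.7% of all. A match describes the letters of the window and does not show that a factor was bound, and the genes were chosen by function.

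The stretches below are shown because they carry the shared letters in genes of every role but the single-strand binding protein. In that role only RPA1 had a window, which held none of these letters, and RPA2 and RPA3 could not be searched. Each stretch runs in the direction of the gene, with the matches in capitals and 12 bases on either side.
MCM2 (chr3:127598401-127598432, plus strand): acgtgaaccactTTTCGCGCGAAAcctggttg
MCM3 (chr6:52284727-52284758, minus strand): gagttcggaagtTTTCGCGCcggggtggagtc
MCM7 (chr7:100101387-100101418, minus strand): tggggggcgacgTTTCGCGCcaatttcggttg
ORC3 (chr6:87590111-87590142, plus strand): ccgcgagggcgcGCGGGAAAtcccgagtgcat
CDC6 (chr17:40287874-40287905, plus strand): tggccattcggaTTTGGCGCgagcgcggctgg
CDT1 (chr16:88803742-88803773, plus strand): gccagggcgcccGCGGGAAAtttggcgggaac
GMNN (chr6:24775321-24775352, plus strand): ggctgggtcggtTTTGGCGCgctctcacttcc
CDC7 (chr1:91501066-91501097, plus strand): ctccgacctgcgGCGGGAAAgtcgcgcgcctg
GINS1 (chr20:25407666-25407697, plus strand): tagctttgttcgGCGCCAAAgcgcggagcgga
GINS2 (chr16:85688966-85688997, minus strand): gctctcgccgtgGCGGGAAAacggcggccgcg
PCNA (chr20:5126662-5126693, minus strand): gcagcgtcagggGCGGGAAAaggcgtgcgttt
RFC3 (chr13:33818082-33818113, plus strand): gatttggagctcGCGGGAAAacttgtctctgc
POLA2 (chr11:65261897-65261928, plus strand): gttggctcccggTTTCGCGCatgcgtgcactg
POLE2 (chr14:49688200-49688231, minus strand): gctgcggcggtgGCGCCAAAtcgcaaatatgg
LIG1 (chr19:48170439-48170470, minus strand): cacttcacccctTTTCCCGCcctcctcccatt
TYMS (chr18:657602-657633, plus strand): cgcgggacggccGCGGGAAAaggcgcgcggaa

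The MCM6 window, chr2:135876394-135876693 on the minus strand, is given whole because it was the window with the most matches, 4 in all. They lie as overlapping pairs, TTTGGCGC on the forward strand and TTTCGCGC on the reverse strand, beginning 152 and 148 bases before the start and again 90 and 86 bases before it.
MCM6: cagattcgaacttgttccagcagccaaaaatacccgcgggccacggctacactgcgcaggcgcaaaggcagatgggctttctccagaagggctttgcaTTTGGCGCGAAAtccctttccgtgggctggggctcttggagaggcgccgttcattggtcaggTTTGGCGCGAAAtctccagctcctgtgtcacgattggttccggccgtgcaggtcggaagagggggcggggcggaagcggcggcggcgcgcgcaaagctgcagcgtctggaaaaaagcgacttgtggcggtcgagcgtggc

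**Figure D3:**
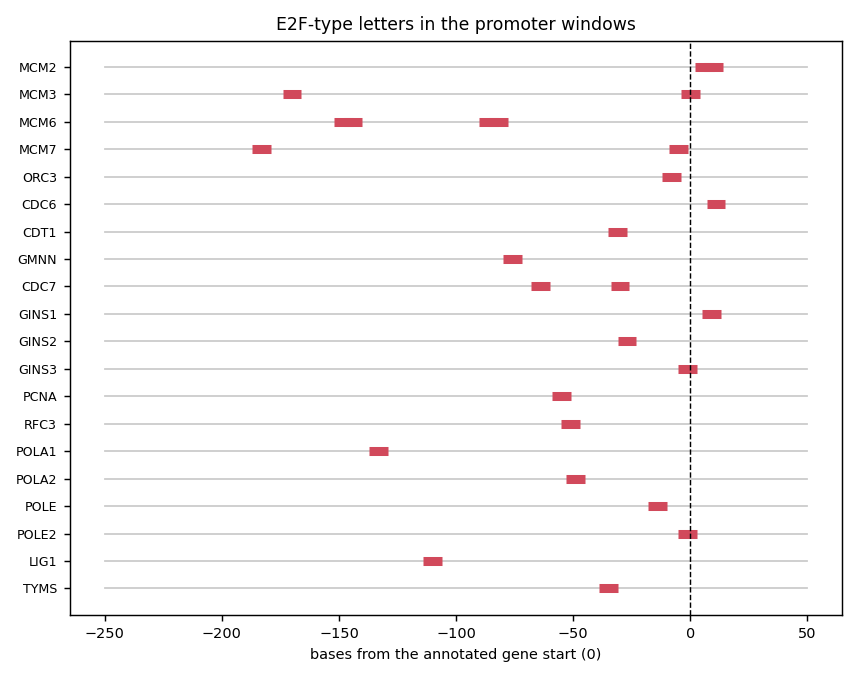
Position of the E2F-type letters (red bars) in the promoter windows (grey lines) of the 20 genes that hold any, in bases from the annotated start at 0. The matches run from 187 bases before the start to 7 bases after it, counted at their first base.

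The subunits of the replicative helicase were all detected, 6 of 6, at 2.27 to 4.85 log2 units over the limit. MCM2 had signals of 5510.3, 6304 and 4216 in replicates 1, 2 and 3, which was 4.85 ± 0.17 (SE) over the limit (limma adjusted p = 1.5e-07). With the uniform displacement of the names it lay at 0.45 and was not detected (limma adjusted p = 0.0655). MCM5 had 718, 1177 and 809, and its SD of 0.37 log2 units was the largest of the 6. MCM4 had 2231, 1838 and 1944 and the smallest SD, 0.14, on its brightest probe set. Its other probe sets had SDs of 0.16, 0.18 and 0.37. The ring contains 1 copy of each subunit, but their signals come from different probe sets, so their levels cannot be set against each other. MCM7 had 3261, 4581 and 3070.1, and MCM3 had 2945, 3220.4 and 2609. MCM2, MCM3, MCM5 and MCM7 were thus highest in replicate 2, whereas MCM6 was highest in replicate 3 with 2676, 2496 and 3107.

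The origin recognition complex, which marks the sites where the helicase is loaded, was detected in all 6 subunits, at 0.90 to 2.73 log2 units over the limit. ORC1, the subunit that in human cells is known to be degraded during S phase, had signals of 275, 352 and 411 and lay 0.90 ± 0.20 (SE) over the limit (limma adjusted p = 0.0031). With the limit at the 99th percentile ORC1 was no longer detected, at 0.06 log2 units. ORC3 had 539, 527 and 1092, so replicate 3 stood over 2-fold above the other cultures. ORC6 had 663, 562 and 1010.3 and was also highest in replicate 3, but its probe set carries the _x_at suffix of designs that can cross-hybridise. ORC5 was steady at 1035, 1145 and 1109 on its brightest probe set. Another ORC5 probe set over the limit on all arrays varied, with 323, 245 and 521. ORC2 had 717, 514 and 517 and was highest in replicate 1. ORC4 had 1355.5, 996 and 1326.5 by a probe set named _s_at, a design that can match more than 1 transcript. The other ORC4 probe set lay at -0.05 log2 units, and ORC4 lost its call (limma adjusted p = 0.456) when probe sets with such names were left out and the limit was taken anew.

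The loading factors and their inhibitor were detected, 3 of 3, and CDT1 was the most variable of the 46 genes. CDC6, the ATPase that helps to place the ring, had signals of 994, 1101 and 1255. GMNN, which encodes geminin, the protein that binds CDT1 and blocks renewed loading, had 2297, 1873 and 2773. CDT1 had 255, 602 and 187, an SD of 0.87 log2 units, and lay close to the threshold at 0.75 ± 0.29 (SE) over the limit (limma adjusted p = 0.0426). Replicate 2 alone stood far above the limit for CDT1. It was not detected without replicate 1 (adjusted p = 0.0538), without replicate 2 (0.301), without a variance trend (0.0868) or with 1 limit for all arrays (0.0621), and with the limit at the 99th percentile it lay at -0.10. GMNN was lowest in replicate 2, where CDT1 was highest. Both were read from 1 probe set, and a relation between them was not tested.

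Genes that turn the loaded ring into a helicase were detected in 7 of 7 cases. CDC7, the kinase, had signals of 704.5, 509 and 514, and DBF4, its activating subunit, had 1620, 1091 and 1602. Both were lowest in replicate 2, CDC7 by a small margin. CDC45, which joins the ring at activation, had 986, 1154 and 1173, and MCM10, which is needed for the helicase to start moving, had 721, 707 and 517. Of the GINS subunits, GINS2 was steady at 954, 902 and 963, with an SD of 0.05 log2 units. GINS1 had 1726, 1199 and 1482. GINS3 had 368, 349 and 395, and lay over the limit by 1.02 ± 0.18 (SE; limma adjusted p = 8.8e-04). Its second probe set had signals of 91.8, 87.1 and 97.4, under the limit on all arrays, and GINS3 was not detected with the median of the pair (limma adjusted p = 0.131) or with the limit at the 99th percentile (0.714).

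The sliding clamp and the 5 subunits of its loader were all detected, and on their brightest probe sets all 6 were higher in replicate 3 than in replicate 2. PCNA, the ring that holds polymerases on DNA, had signals of 4995, 3749 and 6152. RFC2 had the largest SD of the role, 0.45 log2 units, with 795, 804 and 1374. RFC3 barely varied on its brightest probe set, with 2606, 2643 and 2665 and an SD of 0.02. Its other probe set had 1407, 1402 and 1798, an SD of 0.21. RFC1, the large loader subunit, had 886, 611 and 901, RFC4 had 1849, 1491.5 and 1652, and RFC5 had 1259.7, 945 and 1139. On their brightest probe sets these 3 had their lowest signal in replicate 2, as PCNA did. Another RFC1 probe set over the limit was highest in replicate 2, at 680, 770 and 705. Of the other RFC5 probe sets, 1 had 690, 696 and 1019, and 1 was lowest in replicate 2, at 292, 172 and 275. RFC1 was read from a probe set with the _x_at suffix, and without suffixed probe sets its remaining one lay at -3.63 from a limit taken anew, so RFC1 was not detected there.

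The single-strand binding protein RPA, which coats the unwound template, was detected in 3 of 3 subunits. RPA1 had signals of 1863, 1795 and 1832, RPA2 had 2298, 1609 and 1246, and RPA3 had 2233, 2123 and 2891. On the brightest probe sets the SD was 0.03 log2 units for RPA1 and 0.44 for RPA2. The other RPA1 probe set lay at the same 3.33 log2 units over the limit and had an SD of 0.36. The low spread of RPA1 thus depended on the choice of probe set. The proteins form 1 complex. RPA2 was lowest and RPA3 highest in replicate 3, by 1 probe set each, and this difference was not tested.

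Primase and the polymerases were detected for 8 of 9 genes. Polymerase α and primase make the primers, polymerase ε is the main enzyme of the leading strand and polymerase δ that of the lagging strand. PRIM2 had signals of 213, 164 and 190.2, over the limit in replicates 1 and 3 and under it in replicate 2, and was not detected at 0.04 ± 0.22 (SE; limma adjusted p = 0.846). It had 1 probe set, and not being detected says only that this probe set was no brighter than the limit. PRIM1, the catalytic subunit of primase, was detected at 763, 772 and 842. The polymerase α subunits POLA1 and POLA2 had 369, 273 and 355, and 898, 834 and 872, in the order of the replicates. POLA1 lay near the limit, at 0.85 ± 0.20 (SE), and missed the threshold without replicate 1 (limma adjusted p = 0.0502).

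POLD1, the catalytic subunit of polymerase δ, had signals of 444, 916 and 372, so that replicate 2 was over 2-fold above both other cultures. POLE, the catalytic subunit of polymerase ε, was also highest in replicate 2, at 297, 487 and 248. It lay 0.85 ± 0.22 (SE) over the limit (limma adjusted p = 0.00598). With the limit at the 99th percentile, POLE and POLA1 were at 0.0066 and 0.0046 log2 units and were not detected. Each of these polymerase δ and ε genes was read from 1 probe set. Even probe sets of the same gene often differed in such directions, as given below, so no pattern is drawn between subunits. POLD2 had 2254, 2646 and 1923 and was highest in replicate 2, whereas POLD3 had 993, 745 and 1088 and POLE2 had 1018, 859 and 1040.2, each lowest in replicate 2.

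Processing of lagging-strand fragments was represented by FEN1, the flap nuclease, and LIG1, the ligase, both detected. FEN1 had signals of 2446, 2583 and 2474, and LIG1 had 570, 588 and 493. LIG1 was not detected with the uniform displacement (limma adjusted p = 0.626). Genes of deoxynucleotide supply were detected in 4 of 4 cases, at 2.96 to 5.36 log2 units over the limit. RRM2, the regulated subunit of ribonucleotide reductase, had 7432.5, 7547 and 7442 and the smallest SD of the 46 genes, 0.01 log2 units. Its partner RRM1 had 2828, 3421 and 4329.9. TYMS, the thymidylate synthase and target of fluorouracil, had 5442, 8689 and 7266, and TK1, the thymidine kinase of dividing cells, had 1532, 1536 and 1215. TYMS was lowest in replicate 1 and highest in replicate 2, RRM1 was highest in replicate 3, and RRM2 was level. With the uniform displacement TYMS lay at -0.83.

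Spread between cultures was set beside that of all detected genes, with no test. The median SD of the 45 detected replication genes was 0.25 log2 units, with quartiles of 0.14 and 0.32, against 0.29 for all 5218 detected genes, with quartiles of 0.18 and 0.43. Of the 45 genes, 29 had an SD under that median of 0.29. The 2 sets were not matched for signal. The 45 genes lay at a median of 2.60 log2 units over the limit and all detected genes at 2.15. Replicates 2 and 3 were furthest apart, in these genes with a median absolute difference of 0.32 log2 units and in all detected genes with 0.44. Between these arrays 3 of 45 genes differed over 2-fold, namely CDT1, POLD1 and ORC3, where 12.7% of all detected genes did. Between replicates 2 and 1 it was 2 of 45, CDT1 and POLD1, against 1.74%, and between replicates 3 and 1 it was 1 of 45, ORC3, against 5.56%. These are values of single arrays and carry no test.

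Directions were counted by role. The lowest signal fell in replicate 2 for 22 of 45 genes (48.9%) and in replicate 3 for 11 (24.4%). Among all detected genes it fell in replicate 2 for 35.95% and in replicate 3 for 45.0%. The median difference of replicate 3 minus replicate 2 was 0.08 log2 units over the replication genes and -0.05 over all detected genes, and 29 of 45 replication genes (64.4%) and 46.3% of all detected genes were higher in replicate 3. By role it was 0.41 for the clamp and its loader, with 6 of 6 genes higher in replicate 3, and 0.32 for the origin recognition complex, with 5 of 6. Helicase activation had 0.09 and 6 of 7, primase and the polymerases 0.13 and 6 of 9 with PRIM2 included, loading 0.19 and 2 of 3, and single-strand binding 0.03 and 2 of 3. For the MCM helicase it was -0.42, with 2 of 6 higher in replicate 3. Nucleotide supply had -0.14 and 1 of 4, and fragment joining -0.16 and 0 of 2. Roles hold between 2 and 9 genes, and no test of a difference between them was made.

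**Figure D4:**
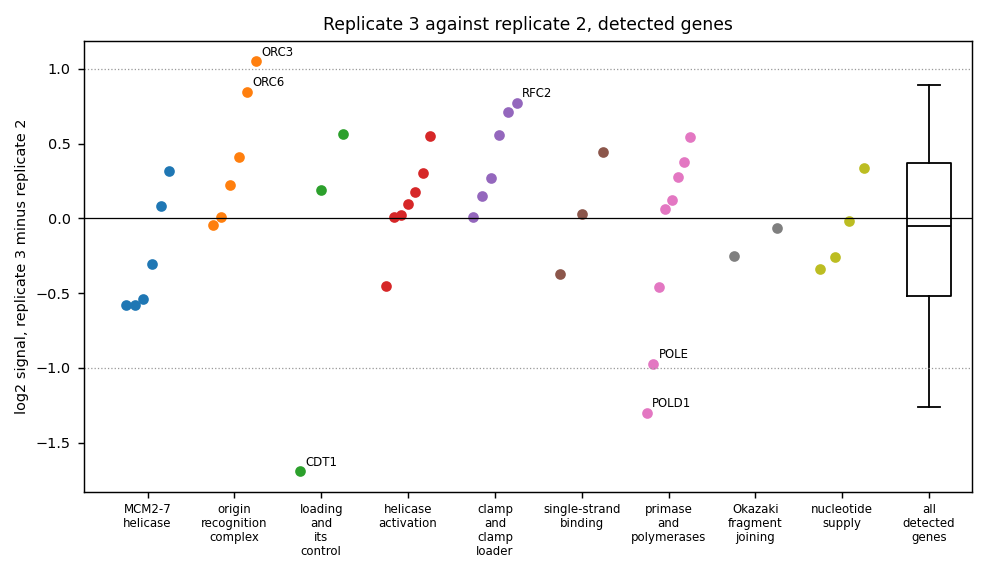
Log2 signal in replicate 3 minus replicate 2 (y axis) for each detected replication gene, by role (x axis), with a box for all 5218 detected genes (median, quartiles, whiskers at the 5th and 95th percentiles). Dotted lines mark 2-fold, and genes over 0.75 log2 units apart are named. CDT1 and POLD1 lie below the lower line and ORC3 above the upper one.

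Genes with several probe sets allowed a second reading. For 16 genes there were 37 probe sets, and 31 of them lay over the limit on all arrays. In 10 of the 16 genes all probe sets did. The other 6 genes were GINS3, ORC4, ORC5, RFC1, RFC5 and TYMS. TYMS had 1 probe set 5.26 log2 units over the limit and another at -1.65, and ORC5 had 3 that ran from 2.59 to -5.47. The median distance between the highest and lowest probe set of a gene was 1.05 log2 units.

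Differences between replicates often did not carry over to the second probe set. In the 13 genes with at least 2 probe sets over the limit, the 2 brightest gave the same sign of replicate 3 minus replicate 2 in 9, and the same sign of replicate 2 minus replicate 1 in 5. Across these 13 genes the correlation was r = 0.38 (rho = 0.07) for the first difference and r = 0.06 (rho = -0.09) for the second. These probe sets share their arrays. MCM7 gave the same picture by both, with 3009, 3833 and 2866 on its second probe set, as did MCM5 in the difference between replicates 2 and 3, with 516, 575.5 and 268. RRM2 did not: its second probe set had 3576, 2865 and 4422, so the steadiness of the brightest one was not shared. RRM1 was lowest in replicate 1 on its brightest probe set and in replicate 2 on the other, with 2821, 1977 and 2653. The steady RPA1 also had a second probe set that varied, with 1908, 1404 and 2287. CDT1, POLD1 and ORC3 had 1 probe set each, so their differences could not be set against another.

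**Figure D5:**
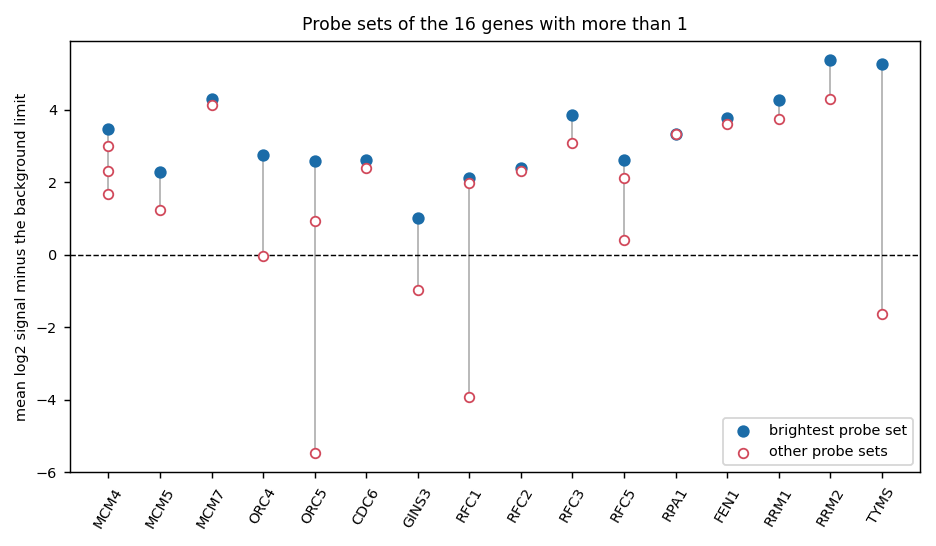
Mean log2 signal minus the background limit (y axis) of every probe set of the 16 replication genes with more than 1 (x axis). Filled points are the brightest probe sets, open points the others, and the dashed line is the limit. Probe sets of ORC5, RFC1 and TYMS are spread over more than 6 log2 units.

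Other genes that serve replication were taken from a list, with no test against the 46 genes. Of 57 listed genes of S phase entry, fork protection, chromatin assembly, nucleotide metabolism and checkpoint control, 47 were measured and 36 were detected, beside 43.6% of all genes. All 8 measured checkpoint genes were detected, among them USP1, a deubiquitinase of PCNA, at 3667, 2582 and 3957, and RAD1, a subunit of the checkpoint clamp, at 1642, 1376 and 1328. DUT, which removes dUTP from the nucleotide pool, had 4126, 3234 and 4189. TOP1, which relieves the twist ahead of forks, had 5923, 4816 and 4326, and NASP, a histone chaperone, had 3380.4, 3084 and 3937. Among S phase entry genes 7 of 10 were detected, including CCNA2, the S phase cyclin, at 2091, 2465 and 1829. CDC25A, the phosphatase that activates cyclin-dependent kinase, was not detected, at 314, 330.5 and 42.5, with replicate 3 far below the others. CLSPN, which links fork and checkpoint, was not detected at 8.81, 8.40 and 35.1. GINS4, the remaining GINS subunit, was not detected at 154, 107 and 153 (limma adjusted p = 1), under the limit on all arrays, although GINS1, GINS2 and GINS3 were. WDHD1, RECQL4, CHAF1B, HELLS, TK2, MCM9, E2F2 and RBL1 completed the genes not detected. CHAF1B missed narrowly (adjusted p = 0.052), with 3 of 3 arrays over the limit. The E2F-type letters were found for 14 of 40 of these genes with a window (35.0%).

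The labelled cell type was checked against marker genes. Of 16 markers of colon epithelium 12 were detected, among them KRT18 at 20577, 24816 and 30067, and 4 were not, namely CDX1, CDX2, GPA33 and CDH17. Of 20 measured markers of fibroblasts, endothelium and leukocytes 1 was detected, COL1A1 at 423, 526 and 185, and their summed signal was 1735, 2002 and 1690.3. Of 11 measured targets of IFN-γ 10 were detected, with CIITA, the regulator of MHC class II, at the limit. Without untreated cultures this does not show that the treatment acted. Among all genes 43.6% were detected. The median signal of the arrays was 137, 144 and 141. The share of the signal held by the 100 brightest probe sets was less even, at 11.5, 12.6 and 15.5% in replicates 1, 2 and 3. With 3 arrays, all estimates of spread are imprecise.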

How the data were processed

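RNA from 3 cultures was hybridised to 1 Affymetrix array each. Each probe set has a deposited intensity on a linear scale. The submitters' processing notes name MAS5 and the Affymetrix Expression Console, version 1.1. Background and scaling steps are not given in the sources used here, but each array's trimmed mean was 500.3. Values were matched to names in the order 15 unnamed, 100 probe sets numbered from 200000, 493 with lower numbers, 21622 others and 47 unnamed, leaving 62 control probe sets unassigned. Of the probe sets 19071 had 1 symbol, 1043 several and 2107 none, and the first kind was used. Log2 signal minus the background limit was tested one-sided in limma (version 3.58.1 under R 4.3.3) by an intercept-only model with a variance trend, with Benjamini-Hochberg adjustment. Of the 75 measured genes behind the limit, 2 were detected. The procedure was tested on simulated data, with independent noise around levels in the inferred order. Such data cannot bear on the order of the names or on the choice of genes behind the limit. The genes and lists were chosen with earlier results of these data known. Signals are printed for all 46 genes, although a subset was first planned. Among listed genes, those not detected and up to 2 per subgroup by the largest moderated statistic are named. P-values rest on the spread between these 3 cultures only, with each gene's variance moderated by the trend over all genes. They treat the background limit as known.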

Additional observations from a re-analysis of the deposited data

How the results depend on the processing

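The order of the names decided the results. With the names as deposited 375 genes were detected, 273 of them shared with the 5218 in the inferred order, and 2 of the 46 replication genes, POLD2 and RPA2. The median of the 46 was then -2.39 log2 units from the limit and the median SD of POLD2 and RPA2 was 0.354. These 42 genes lay under the limit with the names as deposited, in log2 units: CDC45 -4.91, CDC6 -1.89, CDC7 -1.20, CDT1 -2.92, FEN1 -2.19, GINS1 -5.58, GINS2 -5.49, GINS3 -3.41, GMNN -4.42, LIG1 -0.35, MCM10 -7.57, MCM3 -1.66, MCM4 -2.78, MCM5 -0.21, MCM6 -5.41, MCM7 -3.64, ORC1 -3.71, ORC2 -1.54, ORC3 -2.565, ORC4 -1.64, ORC5 -4.12, ORC6 -2.50, PCNA -1.47, POLA1 -1.99, POLA2 -2.28, POLD1 -0.71, POLD3 -4.36, POLE -5.61, POLE2 -8.68, PRIM1 -3.50, PRIM2 -5.85, RFC1 -5.09, RFC2 -2.12, RFC3 -2.22, RFC4 -2.05, RFC5 -0.28, RPA1 -3.97, RPA3 -4.46, RRM1 -0.73, RRM2 -5.54, TK1 -2.05 and TYMS -1.49. For 50 of the 67 probe sets of the replication genes, 1 uniform displacement of the names gives the same values as the inferred order. Most calls could thus hardly change, and 42 of 46 were detected. TYMS lay at -0.83, MCM2 at 0.45 (limma adjusted p = 0.0655) and LIG1 at 0.12 (0.626). Without probe sets suffixed _x_at or _s_at fewer genes could be measured, and 28 of 32 replication genes and 3195 of 8369 genes were detected, with a median of 2.81 over the replication genes, GINS3 at -0.68 and RFC1 at -3.63. The median was 1.75 with the limit at the 99th percentile and 2.97 at the 90th, and at the 99th 40 of 46 were detected, CDT1 lay at -0.10 and PRIM2 at -0.80. Leaving out 1 replicate gave 43 to 45 detected replication genes, 4802 to 5246 detected genes and a median of 2.52 to 2.64. The median SD was then 0.154 to 0.217, the lowest without replicate 2. These SDs are over 2 arrays and cannot be set against the 0.248 over 3 arrays. PRIM2 ran from -0.057 without replicate 1, over -0.0078 without replicate 3, to 0.19 without replicate 2, and was not detected in any of these. Outside the deposited names, 36 of 46 genes kept their side of the threshold under the 13 other alternatives wherever they could be measured, and 10 did not. The cause of these changes was not tested. No paired analysis was possible because there was 1 group.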

Other observations

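Inhibitors of cyclin-dependent kinases, which hold cells before S phase, were measured for 6 genes. Of these 2 were detected by limma, where 43.6% of all genes were, so the share says nothing particular about the inhibitors. CDKN2A had signals of 4212, 6664 and 5617.5 and lay 4.89 log2 units over the limit, and CDKN1B had 1265, 867 and 1566 and lay 2.71 over it. The CDKN2A probe set carries the _x_at suffix of designs that can cross-hybridise. CDKN1A, the inhibitor known as p21, had 165, 39.7 and 279, over the limit in replicate 3 alone, and was not detected. CDKN1C, CDKN2B and CDKN2D lay under the limit on all arrays.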
